A study of Mus musculus with 18 samples.

Results

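The variable (V) segments of the immunoglobulin loci were read in RNA from BALB/c distal colon, of mice that lacked Il10 (Il10KO) and of wild-type (WT) mice. The members were all rows of the gene table whose symbol starts with Ighv, Igkv or Iglv and a digit. They were 126 of the 16321 genes in the table, made up of 41 Ighv, 82 Igkv and 3 Iglv segments. GENCODE M21 lists 346 V segments on build GRCm38, so that 41 of 183 Ighv, 82 of 160 Igkv and 3 of 3 Iglv segments were in the table, 4 of them annotated as pseudogenes. The groups were Il10KO mice at weeks 6, 8, 10, 12 and 14 of age, and WT mice at week 6, which makes 6 groups of 3 mice, each mouse giving 1 library of polyadenylated RNA. Il10 encodes interleukin 10, a cytokine that restrains inflammation, and mice without it develop colitis. No WT mice older than week 6 were in the series, and all 3 WT mice came from the same cage, in which no Il10KO mouse was kept per the labels, so that genotype and cage cannot be told apart. Il10 itself had 0 estimated counts in each of the 15 Il10KO libraries and 1, 0 and 3 in WT libraries, too few to check the labels.

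A V segment is the part of an antibody gene that encodes most of the antigen-binding domain. In a developing B cell it is joined to a D and a J segment in the heavy chain (Ighv), or to a J segment in the kappa (Igkv) or lambda (Iglv) light chain, and each B cell then uses 1 productive heavy and 1 productive light chain. Plasma cells are the antibody-secreting descendants of B cells. In the lamina propria of the colon they mostly secrete IgA, whose heavy-chain constant region is encoded by Igha and whose units are joined by the J chain (Jchain). Tissue RNA gives the V segments that the plasma cells and B cells of a biopsy use, weighted by the RNA each cell holds, and fewer cells of a type cannot be told apart from less RNA per cell. The pairing of heavy with light chains and the junctions that define a clone were not measured.

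The V exons of 6 segments, up to their last 300 bases, are shown because the results below return to them. They are 5 of the 6 segments that led a library, and Ighv2-2, which fell at weeks 10, 12 and 14. They are reference sequences, read from the GENCODE M21 transcripts on the reverse strand of GRCm38. Igkv4-59 (chr6:69438218-69438517), Igkv12-41 (chr6:69858420-69858717) and Igkv6-20 (chr6:70335841-70336138) are kappa segments. Ighv2-2 (chr12:113588267-113588566) is a heavy-chain segment, and Iglv1 (chr16:19085017-19085316) and Iglv2 (chr16:19260401-19260700) are lambda segments. Capitals mark the in-frame codons for tyrosine, any residue and cysteine near the end of the V exon, the conserved cysteine after which the junction with D or J begins. Such codons were found in the last 60 bases of the V exon in 120 of the 126 members.
Igkv4-59: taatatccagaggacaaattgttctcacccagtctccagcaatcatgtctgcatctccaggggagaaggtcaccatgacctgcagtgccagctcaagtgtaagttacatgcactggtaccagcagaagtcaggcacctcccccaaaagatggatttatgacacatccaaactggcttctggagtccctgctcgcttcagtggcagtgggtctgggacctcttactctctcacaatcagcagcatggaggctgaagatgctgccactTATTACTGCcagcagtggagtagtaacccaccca
Igkv12-41: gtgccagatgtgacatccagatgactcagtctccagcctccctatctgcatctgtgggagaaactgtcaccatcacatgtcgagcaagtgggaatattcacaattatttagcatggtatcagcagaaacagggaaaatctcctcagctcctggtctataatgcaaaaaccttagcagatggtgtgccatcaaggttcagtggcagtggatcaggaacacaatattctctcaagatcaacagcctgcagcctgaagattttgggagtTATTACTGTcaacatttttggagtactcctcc
Igkv6-20: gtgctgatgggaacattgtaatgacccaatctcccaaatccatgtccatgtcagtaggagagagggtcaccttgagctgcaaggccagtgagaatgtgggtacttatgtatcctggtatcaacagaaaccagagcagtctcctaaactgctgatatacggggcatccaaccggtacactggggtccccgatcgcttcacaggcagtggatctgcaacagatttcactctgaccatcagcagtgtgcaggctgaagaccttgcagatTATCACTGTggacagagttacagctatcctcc
Ighv2-2: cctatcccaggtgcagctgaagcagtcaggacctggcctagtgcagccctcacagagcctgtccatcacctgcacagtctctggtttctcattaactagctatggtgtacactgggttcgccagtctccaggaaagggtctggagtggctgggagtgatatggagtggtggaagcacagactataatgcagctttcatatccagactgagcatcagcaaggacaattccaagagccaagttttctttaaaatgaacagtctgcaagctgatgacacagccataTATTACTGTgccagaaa
Iglv1: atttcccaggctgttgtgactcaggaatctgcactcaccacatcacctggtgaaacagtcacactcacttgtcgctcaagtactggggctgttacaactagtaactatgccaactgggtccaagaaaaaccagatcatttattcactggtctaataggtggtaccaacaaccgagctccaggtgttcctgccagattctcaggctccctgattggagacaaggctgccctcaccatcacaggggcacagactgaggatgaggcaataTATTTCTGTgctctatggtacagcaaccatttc
Iglv2: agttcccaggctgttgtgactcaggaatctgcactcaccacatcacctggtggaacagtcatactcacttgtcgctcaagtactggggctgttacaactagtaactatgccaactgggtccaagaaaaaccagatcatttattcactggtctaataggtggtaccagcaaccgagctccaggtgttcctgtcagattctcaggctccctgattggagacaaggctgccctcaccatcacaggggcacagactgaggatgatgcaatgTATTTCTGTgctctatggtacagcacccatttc

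Many V segments are near copies of each other, which limits how far counts can be assigned to 1 of them. The V exons of Iglv1 and Iglv2 were 97.0% identical, with 9 edits over 305 bases, and those of Igkv12-41 and Igkv6-20 were 65.1% identical. Of the 126 members, 27 had another V gene of at least 95% identity over the whole transcript, by which Iglv1 and Iglv2, at 90.8%, were not among them. Further, in 50 members fewer than 50% of the 31-base words of the transcript were unique to it. For Igkv4-59 13.0% of these words were unique, against 31.7% for Ighv2-2, 46.4% for Igkv12-41 and 22.0% for Igkv6-20, and for Iglv1 and Iglv2 the shares were 63.2% and 63.5%. Values of segments with close copies are therefore uncertain at the level of the single segment. The heavy-chain locus of BALB/c mice differs in its set of segments from that of the C57BL/6J reference, and the effect of this on the counts was not tested.

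Depth was 26495521 to 35497101 counts a library, where counts are kallisto estimates rounded to whole numbers. The RNA integrity number (RIN) was 8.4 to 9.3 in 16 libraries, and 6.5 and 5.8 in Il10KO week 14 replicates 2 and 3. These 2 libraries also stood apart in what follows. All 126 members had at least 10 counts in at least 3 libraries and all passed the low-count filter, which kept 16300 genes. In sentences below, a share of V counts is the percent that a segment takes of all counts in the 126 members of a library. A level is in CPM, counts scaled to a common TMM-adjusted library size, and a change is a log2 fold change from edgeR with n = 3 a group. Its SE was derived from the test and rests on the spread shared by all groups, and a member is called at a Benjamini-Hochberg adjusted p under 0.05 over all 16300 genes.

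Total V-segment RNA was higher in each Il10KO week 6 library than in each WT library. In Il10KO week 6 libraries the V segments held 0.110%, 0.0381% and 0.0490% of all counts (95% Wilson intervals 0.109% to 0.112%, 0.0374% to 0.0388% and 0.0482% to 0.0499%). In WT week 6 libraries they held 0.00952%, 0.0289% and 0.00597% (0.00918% to 0.00987%, 0.0283% to 0.0295% and 0.00571% to 0.00624%). The intervals cover counting error only. The mean share of counts was 0.0658% ± 0.0390 in Il10KO week 6 libraries and 0.0148% ± 0.0123 in WT libraries (SD, n = 3 each), a log2 ratio of 2.16. Among the libraries of either genotype the share varied by more than 2-fold.

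**Figure D1:**
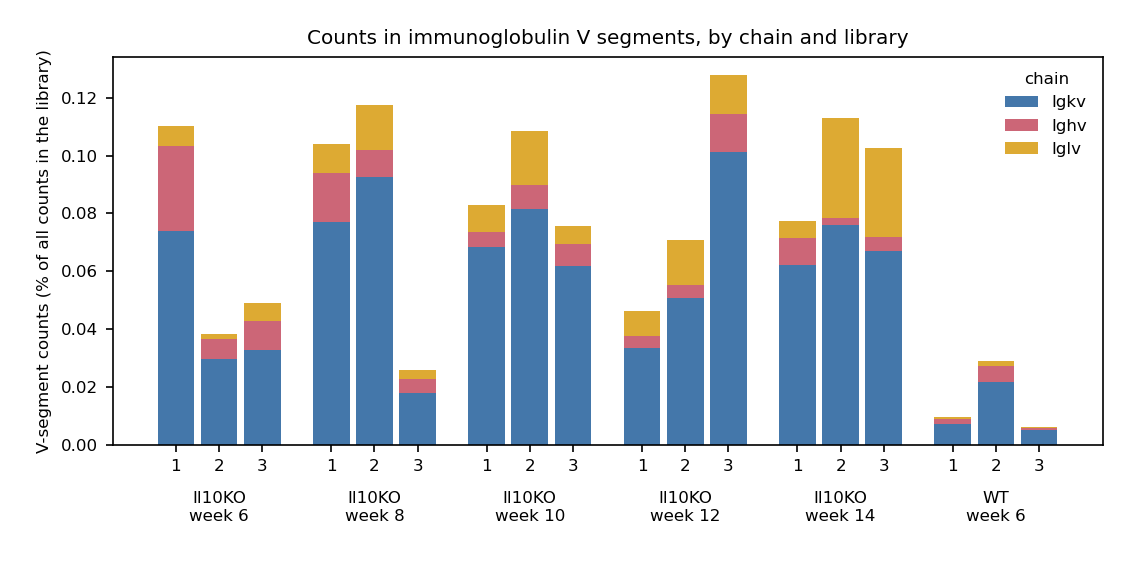
Counts in V segments as a percent of all counts, stacked by chain, in each of the 18 libraries (the digit is the replicate). The 3 WT bars lie under the 3 Il10KO week 6 bars, and the lambda part (Iglv) is largest in Il10KO week 14 replicates 2 and 3.

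At later ages the share of counts had no steady course in Il10KO mice. The week 8 libraries held 0.104%, 0.117% and 0.0258%, and the week 10 libraries 0.0830%, 0.109% and 0.0755%. The week 12 libraries held 0.0462%, 0.0709% and 0.128%, and the week 14 libraries 0.0773%, 0.113% and 0.103%. The Il10KO week 8 replicate 3 library, at 0.0258%, lay below the highest WT library, and every other Il10KO library lay above all WT libraries. The group means from week 8 to week 14 exceeded the week 6 mean by log2 ratios of 0.32, 0.44, 0.31 and 0.57. The groups overlapped with week 6 in each case, and the sign turned at week 8 without week 8 replicate 2 (-0.02) and at week 12 without week 12 replicate 3 (-0.17). The ratio also depended on the scale. On TMM-scaled library sizes it was 0.35, 0.73, 0.46 and 1.27 at weeks 8, 10, 12 and 14, and on TPM, a length-scaled unit, it was 0.23, 0.13, -0.10 and -0.20, so that the sign turned at weeks 12 and 14.

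Most V counts fell on kappa segments, which took 65.2% to 83.1% of them in every library. These are shares of assigned counts and need not be shares of RNA. For every 100 constant-region counts of the same chain, heavy V counts numbered 1.22 to 8.81 and kappa V counts 20.0 to 55.8. The part of read assignment in this difference between chains was not tested. The heavy-chain share was 26.8%, 17.7% and 20.2% at Il10KO week 6, then 16.2%, 7.94% and 18.4% at week 8, then 6.41%, 7.45% and 10.4% at week 10. Libraries of week 12 had 8.87%, 6.60% and 10.5%, those of week 14 had 12.1%, 2.12% and 4.83%, and WT libraries had 19.6%, 19.3% and 12.4%. From week 10 on, each Il10KO library lay below all 3 Il10KO week 6 libraries and below all 3 WT libraries. Lambda segments took 6.36%, 4.28% and 12.7% of V counts at Il10KO week 6 and 9.75%, 13.2% and 12.1% at week 8. Their shares in week 10 libraries were 11.2%, 17.5% and 7.97%, in week 12 libraries 19.0%, 22.1% and 10.4%, and in week 14 libraries 7.40%, 30.5% and 29.9%, against 5.22%, 6.16% and 4.53% in WT libraries. All 3 lambda shares of weeks 8, 10, 12 and 14 thus exceeded those of the WT libraries, and the libraries of week 14 split into 1 of 7.40% and 2 near 30%.

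The constant regions, which are shared by all antibodies of a chain, gave a second reading of each chain. For every 100 Igkc counts, kappa V counts numbered 42.6, 36.2 and 51.7 in Il10KO week 6 libraries and 53.2, 46.2 and 53.6 in WT libraries. They numbered 20.0 in both week 14 libraries of low RIN, against 47.3 in the other week 14 library and 29.6 to 55.8 in all libraries of higher RIN. For every 100 counts in heavy-chain constant genes, heavy V counts numbered 8.81, 6.24 and 7.45 in Il10KO week 6 libraries, and 4.97, 2.28 and 5.35 in those of week 8. The week 10 libraries gave 3.18, 3.12 and 3.15, and the week 12 libraries 4.86, 3.29 and 3.95. They numbered 3.91 in the week 14 library of RIN 9.0 and 1.22 and 2.03 in those of low RIN, against 6.71, 6.04 and 3.20 in WT libraries. All Il10KO libraries after week 6 lay below those of Il10KO week 6, at high RIN as well. Lambda V counts numbered 100 and 113 for every 100 Iglc counts in the week 14 libraries of low RIN and 115 in the other. The kappa and heavy ratios were thus lowest in the 2 libraries of low RIN, and the part of RNA quality in the V counts of week 14 was not tested.

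**Figure D2:**
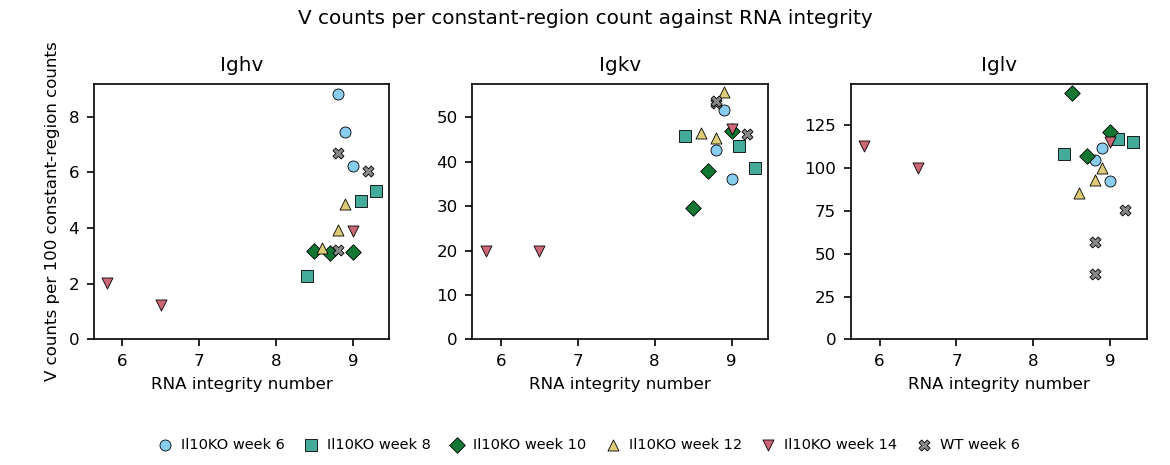
V counts for every 100 constant-region counts of the same chain (vertical axes from 0) against the RNA integrity number, 1 point a library. The 2 libraries of RIN 6.5 and 5.8 have the lowest Ighv and Igkv ratios and an Iglv ratio within the range of the other Il10KO libraries.

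The secretory genes of plasma cells differed in the same libraries. Igha had 90633, 28250 and 32503 counts in Il10KO week 6 libraries and 5443, 24579 and 3328 counts in WT libraries. Its change at week 6 was 2.34 ± 0.73 (SE), with an adjusted p of 1 in edgeR, and no Igha change between ages was called. Jchain rose at week 14 against week 6 by 3.55 ± 0.92 (SE, edgeR adjusted p = 0.0108), with 28993, 141108 and 131414 counts at week 14 and 24478, 11171 and 9617 at week 6. Of 13 plasma cell genes, 4, 1 and 5 rose at weeks 10, 12 and 14, where 14.6%, 1.36% and 24.5% of all genes rose, and none fell. Their summed level was 1446, 10270 and 8315 CPM at week 14, 987.6 to 1443 CPM at Il10KO week 6 and 629.4 to 857.9 CPM in WT libraries, and none was at 0 in a library. Jchain is 1 of the 13 and weighs heavily in this sum. Mzb1, also listed, had 446, 2699 and 2068 counts at week 14 and 355, 111 and 203 at Il10KO week 6. The median change over the 13 genes was 0.29 for Il10KO against WT at week 6. At week 14 against week 6 it was 1.33. In a list of 14 B cell genes none was called in any comparison and none was at 0 in a library. Their summed level was 160.6 to 263 CPM at Il10KO week 6, 159.5 to 457.1 CPM at week 14 and 187.2 to 262.2 CPM in WT libraries. The part of plasma cell abundance in the V counts was not tested.

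Of 11 immunoglobulin constant genes tested, 3, 1 and 6 rose at weeks 10, 12 and 14 and 0 at week 8. Of all genes, 14.6%, 1.36% and 24.5% rose at weeks 10, 12 and 14 and 0.0675% at week 8. None of the 11 fell, where 9.48%, 0.491% and 8.56% of all genes fell at weeks 10, 12 and 14 and 0% at week 8. Igha and Ighm, the constant gene of IgM, were not called in any comparison. Ighg2c, an IgG heavy-chain gene, rose at week 10 by 3.69 ± 0.92 (SE, edgeR adjusted p = 0.0160), with 116, 176 and 121 counts at week 10 and 22, 4 and 9 at week 6. Ighg3, also an IgG gene, rose at week 12 by 4.19 ± 0.91 (SE, edgeR adjusted p = 0.0383), with 295, 629 and 2308 counts at week 12 and 71, 31 and 82 at week 6. Igha held more counts than any Ighg gene in every library.

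Between 105 and 126 members had at least 1 count in a library and the lowest number was that of WT replicate 1. At equal depth, 2008 V counts a library, the expected number with a count was 94.3, 94.4 and 100.1 at Il10KO week 6 and 109.5, 107.3 and 111.4 at week 8. Libraries of week 10 gave 102.9, 104.9 and 109.6, those of week 12 gave 107.1, 101.3 and 106.4, and those of week 14 gave 107.2, 93.1 and 97.6, against 100.1, 99.5 and 112.0 in WT libraries. All libraries of weeks 8, 10 and 12 lay above all Il10KO week 6 libraries, by 13.1, 9.56 and 8.71 segments in the mean. The week 14 libraries overlapped with week 6. Without the equal depth, Il10KO week 6 libraries had 7.33 segments more than WT libraries in the mean, whereas at equal depth the difference was -7.62. The limit that counts as detection also mattered: with at least 10 counts at equal depth the differences were 1.64 at week 8, 6.11 at week 10 and 0.31 for Il10KO against WT.

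Evenness varied widely among the mice of every group but that of week 12. The effective number of segments, the exponential of the Shannon entropy, is the number of equally used segments that would give the same diversity. Il10KO week 6 libraries had 26.7, 21.3 and 51.2, those of week 8 had 48.1, 31.9 and 54.1, and those of week 10 had 31.6, 52.8 and 48.7. Week 12 libraries had 40.9, 43.8 and 46.6, week 14 libraries had 48.6, 26.6 and 32.3, and WT libraries had 24.4, 25.6 and 55.2. The mean was 33.1 ± 15.9 at Il10KO week 6 and 35.1 ± 17.4 in WT libraries (SD, n = 3 each), a difference within the spread between mice whose sign turned without Il10KO replicate 1 or 2 or WT replicate 3. In the least even library, Il10KO week 6 replicate 2, 4 segments held over 50% of V counts, and in the most even, WT replicate 3, 13 segments did.

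**Figure D3:**
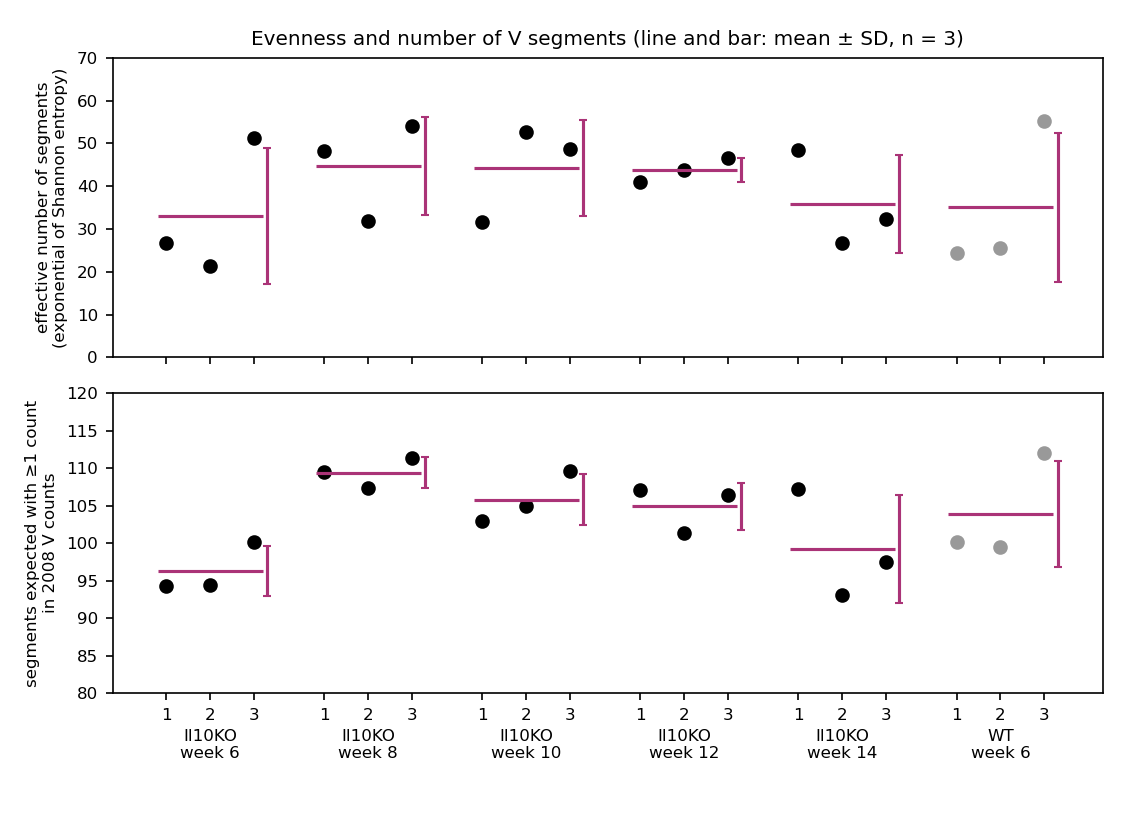
Effective number of V segments (top) and number expected with at least 1 count in 2008 V counts (bottom), 1 point a library, with group means as lines and bars of 1 SD. The lower axis does not start at 0. The libraries of weeks 8, 10 and 12 all lie above the Il10KO week 6 libraries in the lower panel, and in the upper panel the groups overlap.

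The segment that led a library changed with age. Igkv4-59 led all 3 WT libraries, with 30.5%, 29.6% and 6.37% of V counts, and Il10KO week 6 replicates 1 and 2, with 25.9% and 34.1%. It led no library after week 6. Iglv1 led 7 Il10KO libraries: replicate 3 of week 6 (8.84%), replicates 1 and 3 of week 8 (8.36% and 8.56%), replicate 2 of week 10 (9.00%), replicate 1 of week 12 (16.6%) and replicates 2 and 3 of week 14 (25.5% and 22.6%). Igkv12-41 led replicate 2 of week 8 (15.8%) and replicates 1 and 3 of week 10 (24.4% and 12.4%). Iglv2 led replicate 2 of week 12 (10.8%), Igkv6-20 replicate 3 of week 12 (13.8%) and Igkv1-135 replicate 1 of week 14 (8.21%). In all, 6 of the 126 members led at least 1 of the 18 libraries.

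Igkv4-59 and Ighv2-2 were the members whose levels fell at each of weeks 10, 12 and 14 against week 6. For Igkv4-59 the level was 245, 119 and 22.1 CPM at Il10KO week 6, then 51.6, 60.7 and 18 CPM at week 8, then 13.8, 21.6 and 14.7 CPM at week 10. Week 12 libraries had 12.2, 8.29 and 7.42 CPM, week 14 libraries had 11.2, 16.6 and 23.4 CPM, and WT libraries had 26.1, 75.7 and 3.40 CPM. All libraries of weeks 10 and 12 lay below all Il10KO week 6 libraries, and at week 14 the highest library, at 23.4 CPM, exceeded the lowest of week 6. The changes were -2.94 ± 0.89 at week 10 (edgeR adjusted p = 0.0308), -3.79 ± 0.92 at week 12 (adjusted p = 0.0482) and -2.91 ± 0.89 at week 14 (adjusted p = 0.0235; SE in each case).

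For Ighv2-2 the level was 126, 16.7 and 10.6 CPM at Il10KO week 6, then 14.3, 18 and 8.25 CPM at week 8, then 3.69, 7.0 and 4.21 CPM at week 10. Week 12 libraries had 1.09, 1.53 and 2.74 CPM, week 14 libraries had 5.95, 2.06 and 2.86 CPM, and WT libraries had 9.47, 16.8 and 1.38 CPM. All libraries of weeks 10, 12 and 14 lay below all Il10KO week 6 libraries. The changes were -3.36 ± 0.92 at week 10 (edgeR adjusted p = 0.0224), -4.84 ± 0.99 at week 12 (adjusted p = 0.0353) and -3.80 ± 0.94 at week 14 (adjusted p = 0.00897; SE in each case). Its share of V counts was 13.3%, 4.80% and 2.45% at Il10KO week 6, 0.232%, 0.219% and 0.227% at week 12, and 11.1%, 6.57% and 2.59% in WT libraries. The replicate 1 library of Il10KO week 6 held 4114 of its 8166 counts. Without that library the adjusted p of both segments missed 0.05 at weeks 10, 12 and 14. Other libraries mattered as well. The week 10 call of Igkv4-59 also ended without week 6 replicate 2 or any 1 week 10 library, and its week 14 call without week 14 replicate 2 or 3. For Ighv2-2 the week 10 call also ended without week 10 replicate 1, and the week 14 call without week 14 replicate 2.

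**Figure D4:**
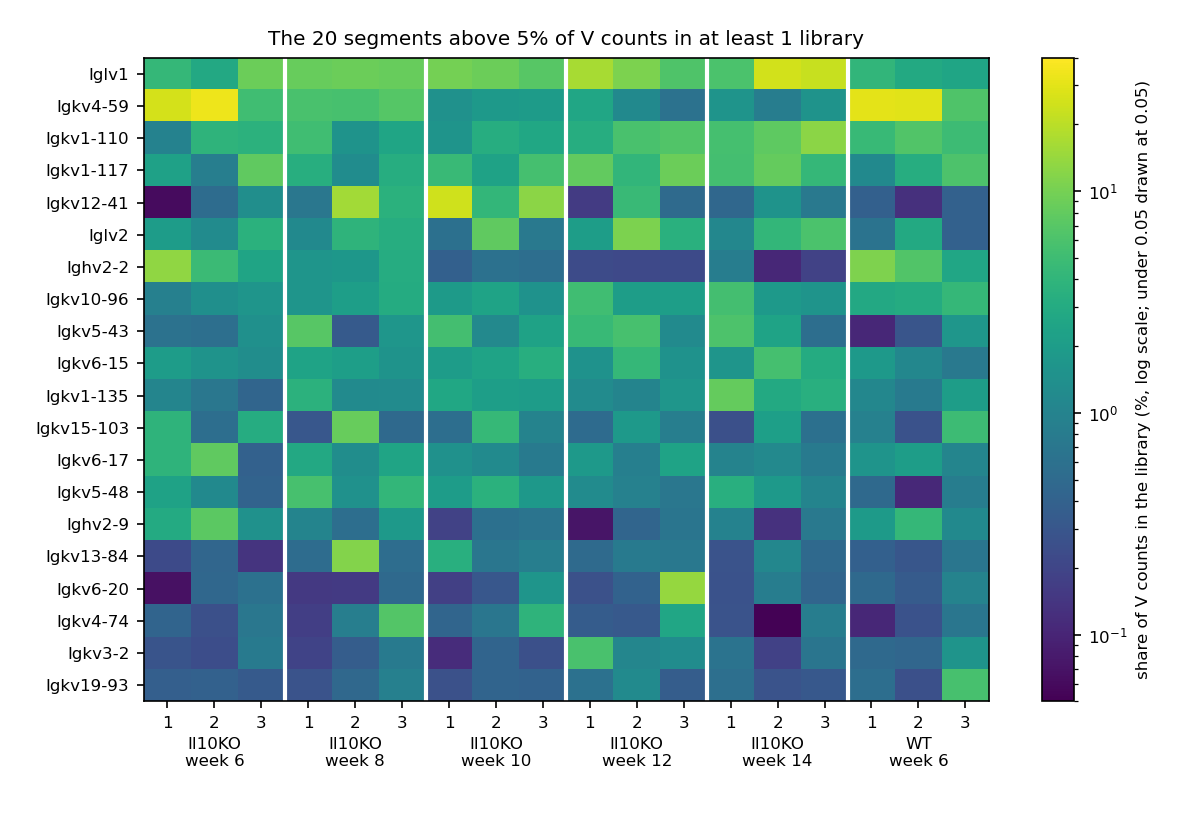
Share of V counts (color, log scale) of the 20 segments above 5% in at least 1 library, in the 18 libraries, with segments ordered by their mean share. Igkv4-59 and Ighv2-2 are high in 4 of the 6 week 6 libraries of both genotypes, Iglv1 is highest in Il10KO week 14 replicates 2 and 3, and Igkv6-20 and Igkv13-84 are high in 1 library each.

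At week 6 no member was called between Il10KO and WT mice, and none of the 16300 genes was (0% called in either direction). DESeq2 called 15 members, all higher, and 0.154% of all genes. In a fit of only these 6 libraries edgeR called 4 of 72 members tested and 0.423% of genes. At an unadjusted p under 0.05, edgeR had 54 of 126 members and 2.42% of genes. The change was positive for 111 members, with a median of 1.99 over the members and -0.01 over all genes. Every Il10KO library exceeded every WT library for 36 members, where 12.3% of all genes did, and the reverse held for 0 members, where 13.1% of all genes did. Among these 36, Ighv1-26, a heavy-chain segment, had 75, 5 and 4 counts in Il10KO libraries and 0 in each WT library, at least 31.3-fold higher against a floor of 3 counts over the WT group. Replicate 1 held 75 of these 84 counts, and without it the bound was 5.08-fold. The lambda segment Iglv1 had a level of 40.6, 9.77 and 38.0 CPM in Il10KO week 6 libraries and 3.51, 7.42 and 1.36 CPM in WT libraries.

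At week 8 no member was called against week 6, where 0.0675% of genes were called higher and 0% lower. DESeq2 called 4 members, all higher, and 1.39% of genes, and edgeR had 27 members and 7.03% of genes at an unadjusted p under 0.05. All 3 week 8 libraries exceeded all week 6 libraries for 10 members (11.1% of all genes did). The change was positive for 93 members, with a median of 0.83, or 0.81 with Igkv4-62, at 0 in all week 6 libraries, set to no change. The median over all genes was 0.03. Igkv12-41 stood at 6.12, 167 and 9.43 CPM at week 8 and 0.581, 1.86 and 5.86 CPM at week 6, so that 1 library carried most of its mean.

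At week 10, 17 members rose and 3 fell, against 14.6% and 9.48% of all genes. The 17 were 13 Igkv and 4 Ighv segments, and as a part of 126 members they were close to the share of all genes. All 3 week 10 libraries exceeded those of week 6 for 38 members and lay below them for 4, where 27.5% and 30.3% of all genes did. The largest rise among members of moderate level was that of Igkv11-125, 5.60 ± 1.57 (SE, edgeR adjusted p = 0.0238), at 0.500, 30.7 and 0.963 CPM at week 10 and 0.459, 0.190 and 0 CPM at week 6, with 1 library far above the rest. Igkv12-41 rose by 5.49 ± 1.51 (SE, edgeR adjusted p = 0.0230), at 231, 49.1 and 92.8 CPM at week 10 and 0.581, 1.86 and 5.86 CPM at week 6. All 3 week 10 libraries were high for this segment. Igkv12-98 rose by 5.10 ± 1.02 (SE, edgeR adjusted p = 0.00669), at 8.34, 3.72 and 1.3 CPM at week 10 and 0.0306, 0.253 and 0.0940 CPM at week 6, and stayed called without any 1 library and in all 13 other settings. Igkv4-57-1 rose by 4.01 ± 0.88 (SE, edgeR adjusted p = 0.0104), at 18, 16.1 and 15.4 CPM at week 10 and 0.490, 0.569 and 2.01 CPM at week 6. Its week 10 libraries were the most alike of those named. The heavy-chain segment Ighv2-6 rose by 4.06 ± 1.26 (SE, edgeR adjusted p = 0.0337), at 15.9, 1.88 and 16 CPM at week 10 and 1.44, 0.316 and 0.251 CPM at week 6.

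The count of 20 at week 10 changed with the libraries used. Without Il10KO week 6 replicate 1, 2 or 3 it was 5, 5 or 7, where 4.7%, 6.09% and 6.76% of all genes were called. Without week 10 replicate 1, 2 or 3 it was 6, 10 or 27, where 6.68%, 11.2% and 32.1% of all genes were. Without the 2 libraries of low RIN, which belong to neither group but enter the shared spread, it was 36, where 51.4% of all genes were called. With cage as a factor 4 members and 3.26% of genes were called. On log2 TPM plus 1, limma called 8 members higher and 3 lower, where 5.99% and 13.9% of genes were, with a median change over all genes of -0.34. The calls of Igkv12-41, Igkv11-125 and Ighv2-6 each ended without any 1 of the 3 week 6 libraries. That of Igkv11-125 also ended without week 10 replicate 2, where its change was 1.74, those of Igkv12-41 and Ighv2-6 without week 10 replicate 1, and that of Igkv4-57-1 without week 6 replicate 1.

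At week 12, 2 members rose and 2 fell, against 1.36% and 0.491% of all genes. The libraries of week 12 all exceeded those of week 6 for 21 members and all lay below them for 2, where 32.8% and 32.9% of all genes did. Igkv3-2 rose by 2.88 ± 0.69 (SE, edgeR adjusted p = 0.0471), at 27.8, 7.45 and 15.7 CPM at week 12 and 2.69, 0.853 and 3.38 CPM at week 6. Igkv4-62, also called as higher, had 26, 72 and 15 counts at week 12 and 0 in each week 6 library, at least 38.6-fold higher against 3 counts over the week 6 group. The members that fell were Igkv4-59 and Ighv2-2. None of the 4 calls held when any 1 of the 6 libraries was left out or with cage as a factor, where 0% to 0.319% of all genes were called. Without the 2 libraries of low RIN 27 members and 40.8% of all genes were called. On log2 TPM plus 1, limma called 1 member higher and 2 lower, where 1.15% and 2.92% of genes were, with a median over all genes of -0.36.

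At week 14, 23 members rose and 2 fell, against 24.5% and 8.56% of all genes. The 23 were 20 Igkv, 1 Ighv and 2 Iglv segments. The libraries of week 14 all exceeded those of week 6 for 35 members and all lay below them for 2, where 19.2% and 21.5% of all genes did. Iglv1 rose by 3.31 ± 0.82 (SE, edgeR adjusted p = 0.00895), at 42.0, 494 and 340 CPM at week 14 and 40.6, 9.77 and 38.0 CPM at week 6. Its counts, before TMM scaling, were 1595, 7925 and 6552 at week 14 and 1326, 309 and 1213 at week 6. Iglv3 rose by 3.82 ± 0.88 (SE, edgeR adjusted p = 0.00676), at 2.00, 17.3 and 19.3 CPM at week 14 and 0.612, 0.759 and 1.35 CPM at week 6. For both segments the library of RIN 9.0 lay just above the week 6 libraries and the 2 of low RIN lay far above. Iglv2 was not called, at 7.67, 80.2 and 91.9 CPM at week 14 and 19.1, 4.39 and 15.4 CPM at week 6.

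Among kappa segments of moderate level, the largest rises at week 14 were those of Igkv4-63, Igkv4-91 and Igkv1-133. Igkv4-63 rose by 5.86 ± 1.47 (SE, edgeR adjusted p = 0.00907), at 0.500, 10.2 and 2.75 CPM at week 14 and 0.0612, 0.0316 and 0.13 CPM at week 6. Igkv1-133 rose by 4.81 ± 1.21 (SE, edgeR adjusted p = 0.00953), at 5.69, 23.7 and 0.987 CPM at week 14 and 0.0306, 0.474 and 0.564 CPM at week 6. In both the week 14 libraries were above all week 6 libraries but far apart from each other. Igkv4-91 rose by 4.88 ± 1.14 (SE, edgeR adjusted p = 0.00702), at 19.2, 90.8 and 11.2 CPM at week 14 and 0.979, 0.443 and 2.66 CPM at week 6. Igkv1-135 rose by 3.52 ± 0.77 (SE, edgeR adjusted p = 0.00622), at 57.4, 56.3 and 51.3 CPM at week 14 and 10.1, 2.43 and 1.91 CPM at week 6. On this scale its 3 week 14 libraries were close to each other, whereas it had 2178, 902 and 988 counts and 8.21%, 2.90% and 3.40% of V counts in them, highest in the library of RIN 9.0. Igkv1-110 rose by 3.30 ± 0.86 (SE, edgeR adjusted p = 0.0113), at 39.4, 148 and 190 CPM at week 14 and 9.05, 13.6 and 15.7 CPM at week 6. Without the 2 libraries of low RIN no member and no gene was called at week 14, and 1 week 14 library then remained. Without Il10KO week 6 replicate 1, week 14 replicate 1 or week 14 replicate 2 the count of 25 became 16, 41 or 15. In these fits 16.8%, 69.5% and 11.5% of all genes were called, so that the 41 members were below the share of all genes. The call of Igkv1-110 ended without week 6 replicate 1, and those of Igkv4-63 and Igkv1-133 without week 14 replicate 2. On log2 TPM the split was different, with 11 members higher and 8 lower with a pseudocount of 1, where 5.39% and 54.5% of genes were and the median over all genes was -0.74. With a pseudocount of 0.1, 11 members were higher and 9 lower, where 5.58% and 56.1% of genes were, and that median was -1.15. No member and no gene was called with RIN as a covariate, with cage as a factor, or with only the week 14 and week 6 libraries in the fit.

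**Figure D5:**
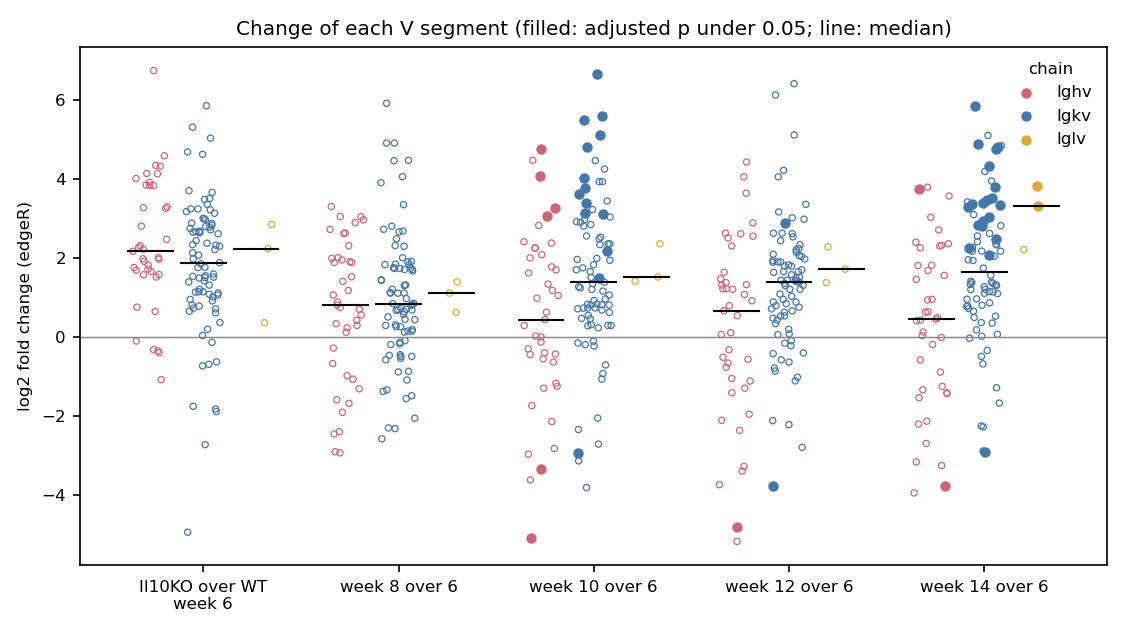
Log2 fold change of each V segment in the 5 comparisons, by chain, with called members filled and the median of each chain as a line. Members with a group at 0 counts are not drawn. The medians are above 0 in all 5 comparisons, and the filled points below 0 include Igkv4-59 and Ighv2-2 at weeks 10, 12 and 14.

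Across the 5 Il10KO ages 30 members were called by edgeR, where 27.4% of all genes were. They were 6 Ighv, 22 Igkv and 2 Iglv segments, among them Igkv4-59 (adjusted p = 0.0192), Ighv2-2 (0.0155), Iglv1 (0.0311), Igkv12-41 (0.0416) and Igkv6-20 (0.0224). The 30 became 8 without week 14 replicate 2, 15 without week 14 replicate 3, 48 without week 14 replicate 1, and 11 or 12 without a week 6 library. In these fits 7.73%, 10.8% and 71.6% of all genes were called, and 8.65% to 9.87% without a week 6 library. With cage as a factor the count was 0, where 0.00613% of all genes were called.

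The mean shares of the Igkv4, Igkv1 and Ighv2 families differed between Il10KO week 6 and the later age shown. Each did so in the direction of its leading segment, which the family total includes. The 19 members of the Igkv4 family took 34.3%, 37.7% and 12.7% of V counts at Il10KO week 6, 8.06%, 10.4% and 10.6% at week 12, and 34.5%, 36.8% and 15.2% in WT libraries. Igkv4-59 alone took 25.9%, 34.1% and 5.14% at Il10KO week 6 and 2.59%, 1.19% and 0.615% at week 12. In WT libraries Igkv4-59 took 30.5%, 29.6% and 6.37%. A change of the family apart from Igkv4-59 is therefore not shown by these totals. The 8 members of the Igkv1 family took 4.57%, 6.20% and 12.9% at Il10KO week 6 and 20.2%, 20.8% and 20.8% at week 14, against 7.77%, 11.6% and 14.5% in WT libraries. The 7 members of the Ighv2 family took 18%, 12.7% and 4.45% at Il10KO week 6, 0.744%, 1.19% and 1.77% at week 12, and 13.6%, 11.2% and 4.43% in WT libraries. The mean share of Ighv2-2 was 6.85% at Il10KO week 6 and 0.226% at week 12, and that of Ighv2-9 was 3.94% and 0.396%. The means of Ighv2-3 (0.124% and 0.404%) and Ighv2-9-1 (0.0557% and 0.0612%) were higher at week 12. Family shares are descriptions without a test.

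In the heavy chain the shares were also summed by position in the locus. The 14 Ighv members at the lowest coordinates (chromosome 12, from 113578504 to 113948796 on GRCm38) lie nearest to the D and J segments. They took a mean of 58.1%, 39.1%, 39.7%, 23.2% and 30.1% of Ighv counts at Il10KO weeks 6, 8, 10, 12 and 14, and 58.9% in WT libraries. The 14 Ighv members farthest from D and J (from 114487136 to 115742647) took 8.65%, 24.6%, 23.0%, 31.4% and 25.2%, and 9.07% in WT libraries. In this far stretch Il10KO week 8 replicate 1, at 14.3%, lay below Il10KO week 6 replicate 3, at 15.8%. Single libraries ranged from 21.1% to 75.6% in the near stretch and from 3.39% to 38.1% in the far one. The near stretch holds Ighv2-2, which alone took 29.6% ± 18.8 of Ighv counts at Il10KO week 6, 2.70% ± 0.58 at week 12 and 37.2% ± 18 in WT libraries (SD, n = 3 each). Without Ighv2-2 the near stretch had 42.3%, 27.4%, 35.4%, 21.1% and 26.1% at the 5 ages and 35.3% in WT libraries, and Il10KO week 6 replicate 3, at 17.9%, lay below every later library. The far stretch then had 12.0%, 29.8%, 24.6%, 32.2% and 26.6%, and 14.1% in WT libraries.

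Some segments were far more abundant in 1 mouse than in the others. Igkv6-20 had 5224 counts in Il10KO week 12 replicate 3, where the next highest library had 402 and the median library 54. Igkv13-84 had 4200 counts in Il10KO week 8 replicate 2, against 844 in the next library and a median of 112.5. Igkv15-103 had 3032 counts in the same week 8 library, where Igkv12-41 led as well, against a median of 155. It was not limited to that mouse, with 1520 counts in Il10KO week 10 replicate 2 and 1210 in Il10KO week 6 replicate 1. Its share of V counts was 8.47% in the week 8 library and 4.93% in WT replicate 3. Of the 20 segments that exceeded 5% of V counts in a library, 11 did so in exactly 1 library and 9 in more. Igkv19-93 was such a segment in WT replicate 3, at 5.78%, and 0.257% to 1.24% in the other 17 libraries.

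The core of the repertoire was shared. At least 10 counts were found in all 18 libraries for 33 members, and these 33 held 41.4% to 81.1% of V counts in a library. At least 10 counts were reached in an Il10KO library and in no WT library by 46 members, and in a WT library and no Il10KO library by 0. This contrast is uneven by design: it sets 15 libraries against 3, and a member entered only with 10 counts in at least 3 libraries, so that one found in WT alone would have needed all 3. WT libraries had 2008 to 9345 V counts and Il10KO libraries 7165 to 37896, and the part of depth in this contrast was not tested. No member reached 10 counts in the libraries of only 1 group.

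The usage of 2 libraries was compared by the share of V counts that they have in common, the sum over members of the lower of both shares. It was 43.4% to 72.7%, with a median of 59.5%, in 15 pairs of Il10KO mice of 1 age. It was 33.6% to 61.3%, with a median of 56.0%, in 14 pairs of 1 cage and different age, and 31.5% to 71.1%, with a median of 53.4%, in 76 pairs that shared neither. Pairs of an Il10KO and a WT library had 32.3% to 74.9% in common, with a median of 46.2% over 45 pairs, and the 3 WT pairs had 50.3%, 51.1% and 72.9%. The ranges overlapped throughout, and libraries enter several pairs, so that these values are a description. The highest value of all 153 pairs, 74.9%, was that of Il10KO week 6 replicate 2 and WT replicate 1, which came from different cages.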

How the data were processed

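RNA of distal colon biopsies, about 0.5 cm long, had been sequenced as paired 150-base reads, per the labels' protocols. The authors quantified transcripts with kallisto on mm10 after FastQC, per the submitters' processing notes; versions and the annotation release are not given in the sources used here. The deposited gene table holds expected counts, kallisto estimates rounded to whole numbers, and a second deposited table holds TPM, scaled by length. The deposited transcript tables give estimated counts and effective lengths, per the file headers. Of their 119414 transcripts 97.68% matched GENCODE M21 (GRCm38), from which positions and sequences came. The median effective length of members was 78.5 to 89.0 bases a library, against a median transcript length of 358, so that TPM weights V counts strongly.

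Groups are genotype and age from the labels, and replicates are separate mice. Counts were fitted in edgeR 4.0.16 (TMM, filterByExpr, quasi-likelihood F-test, 6 group means, 18 libraries) in R 4.3.3; all tests were two-sided, with Benjamini-Hochberg adjustment. The common biological coefficient of variation was 0.394. Shares, effective numbers, equal-depth numbers (hypergeometric expectation) and overlaps were computed in Python 3.11.15 with NumPy 2.4.6, pandas 2.3.3 and SciPy 1.17.1, and figures were drawn with matplotlib 3.10.9. They carry no p. Intervals are Wilson intervals at 95%, and for a count of 0 the floor was 3 counts; both cover counting error only.

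The members, gene lists (written from general knowledge), tests and alternatives were chosen with earlier results of these data known. Named were the 5 highest Ighv and Igkv by mean share of V counts, every Iglv, the top segment of each library, called members with the 5 largest rises and falls and a mean log2 CPM of at least 1 in a group, the 5 with the largest ratio of highest to median library among those with 1000 counts or more, the 5 with most counts among those with 10 or more in 1 library, and the antibody constant, J chain and Mzb1 genes; not all are printed, and 1 further gene of the rule is not reported here. Igkv4-62, Ighv1-26, Igkv1-110, Igkv1-135, Igkv3-2 and Igkv19-93, where outside that rule, were chosen after their values were seen. Alternatives were DESeq2 1.42.0, limma 3.58.1 (log2 TPM plus 1 or plus 0.1), RLE scaling, TMM without immunoglobulin genes, no filter, transcript tables, RIN or cage in the model, a replicate block, only the compared groups, and left-out libraries. The edgeR step was tested on simulated counts with 200 genes changed at week 10. Of those changed 4-fold 82% were called against week 6, and of those changed 8-fold 98%. Of all calls 4.76% were false. The simulated spread followed the trend fitted by expression level and not the spread of each V segment, which for some was far larger in 1 library.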

Additional observations from a re-analysis of the deposited data

Results flagged for a closer look

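The gene table leaves out 220 of the 346 annotated V segments, and the transcript tables gave counts in them. Their summed count reached 470 in Il10KO week 12 replicate 3, the highest of the Il10KO libraries, and was 60 to 470 over the 15 Il10KO libraries and 22 to 65 over the 3 WT libraries. The highest count lay above all WT libraries, while the ranges overlapped. As a percent of V counts in the gene table it was 1.24% in that library, 0.389% to 1.43% over the Il10KO libraries and 0.696% to 1.44% over the WT libraries, and so not above the WT libraries. Of these segments 127 had a count in a library and 93 were at 0 in all 18. At least 10 counts in exactly 1 library were found for 21, of which 4, 4, 3, 5 and 5 were in Il10KO libraries of weeks 6, 8, 10, 12 and 14 and 0 in WT libraries. Ighv1-72 had 48 counts in Il10KO week 12 replicate 3 and 0 in the other libraries. Ighv1-86 had 41 counts in Il10KO week 8 replicate 2 and 8 in the others together. Ighv5-9 had 63 counts in Il10KO week 12 replicate 3, the largest count of any of the 220. The part of total V depth in these counts was not tested.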

How the results depend on the processing

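The direction of each called segment was the same in all alternatives tried. Counts of called members changed. DESeq2 gave 15 for Il10KO against WT at week 6, 4, 42, 23 and 50 at weeks 8, 10, 12 and 14 against week 6, and 51 across ages (0.154%, 1.39%, 36.7%, 15.5%, 47.2% and 50.8% of genes). With only the compared groups in the fit the counts were 4 for Il10KO against WT, 36, 37 and 0 at weeks 10, 12 and 14, and 19 across ages. These were of 72, 107, 104, 104 and 125 members tested, and 0.423%, 40.1%, 59.0%, 0% and 13.2% of all genes were called. With RIN as a covariate the counts were 38, 23 and 0 at weeks 10, 12 and 14, where 46.5%, 35.3% and 0% of all genes were called. With cage as a factor they were 4, 0 and 0, and 0 across ages (3.26%, 0.0123%, 0% and 0.00613% of genes). No fit with cage was possible for Il10KO against WT. Without the week 14 libraries, or without the 2 of low RIN (chosen after seeing the data), the counts were 36 at week 10 and 27 at week 12. Of all genes, 51.6% and 41.3% were called without the week 14 libraries, and 51.4% and 40.8% without those of low RIN. On log2 TPM with a pseudocount of 1, limma called 11 at week 10 and 12 across ages (19.9% and 41.5% of genes). With 0.1 it called 5 and 2 at weeks 10 and 12 and 9 across ages (12.4%, 0.839% and 37.6% of genes). The cause was not tested.

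Replicate numbers did not pair the samples, with correlations of deviations from -0.246 to 0.169. With a replicate block the counts were 0 for Il10KO against WT, 0, 15, 2 and 24 at weeks 8, 10, 12 and 14, and 18 across ages. In that fit 0%, 0.0184%, 18.7%, 1.52%, 34.5% and 20.9% of all genes were called.

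Leaving out 1 library at a time gave 0 calls for Il10KO against WT and for week 8, 5 to 27 for week 10, 0 for week 12, 15 to 41 for week 14 and 8 to 48 across ages. The share of all genes called was 0% for Il10KO against WT and 0% to 1.0% for week 8. It was 4.7% to 32.1% for week 10, 0% to 0.319% for week 12, 11.5% to 69.5% for week 14 and 7.73% to 71.6% across ages. The log2 ratio of V shares ranged from 1.56 to 3.09 for Il10KO against WT, and from -0.02 to 0.92, 0.16 to 1.03, -0.17 to 0.91 and 0.29 to 1.16 at weeks 8, 10, 12 and 14. On TPM it was -0.10 at week 12 and -0.20 at week 14, and on TMM-scaled sizes 0.46 and 1.27. The difference in detected segments ranged from -9.78 to -3.55 for Il10KO against WT, and from 12.1 to 15.1, 7.65 to 11.5, 7.62 to 10.6 and -0.947 to 6.10 at weeks 8 to 14. With at least 10 counts it was 0.308 for Il10KO against WT, 1.64 at week 8 and 6.11 at week 10. Without equal depth it was 7.33, 5.0 and 5.0, and it was 16.8 at week 8 and 14.3 at week 12 from counts of the transcript tables. The difference in effective number ranged from -11.0 to 8.06 for Il10KO against WT, and from 5.73 to 20.7, 5.38 to 20.3, 4.76 to 19.7 and -3.60 to 11.8 at weeks 8 to 14. WT libraries, with 2008 to 9345 V counts, limit what can be said of rare segments.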
